A study of Homo sapiens with 8 samples.

Results

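The LINC genes are long noncoding RNA genes that were named by number because they lie between protein-coding genes and had no described function when they were named. Of 54261 genes in the count table, 946 had a symbol made of LINC and a number. The 93 genes described here (9.83% of the 946) are those with 200 or more counts in at least 1 of 8 libraries. Among those left out, 230 reached between 10 and 199 counts in their highest library and 623 stayed under 10, including 400 with 0 counts in every library. Nearest to the limit were LINC01508 (195 counts) and LINC01605 (193 counts), both highest in hypoxic DLD1 and left out, and LINC00460 (210 counts, hypoxic HCT116) and LINC00663 (212 counts, hypoxic HCT8), which were kept.

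Long intergenic noncoding RNAs are transcribed, capped and often spliced like messenger RNAs, but most carry no long open reading frame. They are usually less abundant and more restricted to particular cell types than messenger RNAs. Some act on nearby genes, some serve as scaffolds for proteins, and a few transcripts first classed as noncoding were later found to encode small proteins. In colorectal cancer several of them have been studied as markers or as regulators of growth, and low oxygen is a known regulator of long noncoding RNAs, in part through the hypoxia-inducible factors, which bind short DNA cores near gene starts.

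Total RNA depleted of ribosomal RNA was sequenced from 5 untreated human cell lines and from 3 of them under hypoxia, with 1 library each. NCM460 and HIEC6 are labelled as normal intestinal epithelial lines. DLD1, HCT116 and HCT8 are colorectal carcinoma (CRC) lines. DLD1 carries mutant p53 and APC, and HCT8 carries mutant APC with wild-type p53, while the genotype of HCT116 and the oxygen level and duration are not given in the sources used here. All lines were grown in DMEM with 10% serum at 5% CO2 and taken at passage 5. Each line was 1 culture, so members of a group were different lines, and the hypoxia comparison rested on 3 pairs of libraries, 1 pair per line.

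Library totals lay between 45519306 and 57374239 counts, so the floor of 3 counts used below corresponded to a CPM of 0.0523 to 0.0659 (CPM is the count as a share of the library total, times 1000000). This floor, and the intervals below, cover counting error only. Among the CRC libraries, untreated and hypoxic samples carried different first run labels, so run and treatment cannot be told apart. Of 12 hypoxia response genes listed to check the labels, 12 had a higher CPM under hypoxia in all 3 pairs. Of 7 intestinal epithelial markers, HIEC6 held 10 counts of EPCAM, 56 of KRT19, 172 of CDH1, 4 of VIL1 and 3 of CDX2, but 243272 of KRT8 and 211257 of KRT18, and the summed level was 8019 CPM against 4551 to 11339 in the other untreated lines. VIL1 was as low in NCM460 (4) and HCT116 (2). Of 8 mesenchymal markers, VIM (69375 counts), FN1, COL1A1 and PDGFRB were highest in HIEC6 among the untreated lines, whereas COL1A2, COL3A1, SPARC and THY1 were lower there than in NCM460, and the summed level was 1396 CPM against 12.6 to 106. NCM460 was close to HCT116: 94.5% of the other genes and 63 of 72 members with 50 or more counts in either line lay within 2-fold of each other, against 35 of 84 members between NCM460 and HIEC6. What lies behind either pattern was not tested.

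Together the 93 genes took 0.0623% to 0.0909% of the counts of a library. The median of their highest counts was 444, against 2599 for the 13805 other genes that passed the same limit, and 57 had 10 or more counts in all 8 libraries. LINC00674 collected the most reads, from 2550 counts in HIEC6 to 5058 in HCT8. RefSeq lists it as a long noncoding RNA, whereas its matched GENCODE entry is a transcribed unprocessed pseudogene with 160 exon bases. The treatment of reads with several matches is not given, so its counts are uncertain. The next by summed reads were LINC01000 (1155 to 3954 counts) and LINC01578 (1438 to 2559 counts), now named CHASERR, a regulator of the neighbouring chromatin remodeller gene CHD2. In current RefSeq naming 73 members kept their symbol and 20 had been renamed. Of the 93, 7 are now annotated as protein-coding: LINC01420 is NBDY, a microprotein of the mRNA decapping complex, LINC00116 is MTLN, a mitochondrial microprotein, LINC00493 is SMIM26, LINC00998 is SMIM30, LINC00094 is BRD3OS, LINC00341 belongs to SYNE3 and LINC00959 is C10orf143. NBDY had 878 to 3558 counts and SMIM26 1010 to 1635, and under hypoxia those with 50 or more counts in a pair (6 of the 7 in DLD1 and in HCT116, and 7 in HCT8) had median log2 ratios of -0.11 in DLD1, -0.62 in HCT116 and -0.05 in HCT8.

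The start regions of 4 members described in the hypoxia comparison are shown first. Each is the RefSeq window (GRCh38.p14) of 300 bases, from 250 before the annotated start to 50 after it, on the strand of the gene, and capitals mark the core ACGTG or GCGTG that hypoxia-inducible factors recognise, read on either strand (on the other strand it reads CACGT or CACGC, and overlapping matches are counted separately). LINC00887 lies at chr3:194312755-194313054 (minus strand), LINC00511 at chr17:72640423-72640722 (minus), LINC00673 at chr17:72592755-72593054 (minus) and LINC00941 at chr12:30795431-30795730 (plus). No window was found for LINC01559, which is named only.
LINC00887: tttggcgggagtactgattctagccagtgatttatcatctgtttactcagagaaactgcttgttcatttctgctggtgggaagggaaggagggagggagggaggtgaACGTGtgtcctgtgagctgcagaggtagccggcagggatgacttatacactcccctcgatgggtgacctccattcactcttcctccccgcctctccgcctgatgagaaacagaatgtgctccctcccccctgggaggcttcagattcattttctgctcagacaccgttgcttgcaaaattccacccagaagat
LINC00511: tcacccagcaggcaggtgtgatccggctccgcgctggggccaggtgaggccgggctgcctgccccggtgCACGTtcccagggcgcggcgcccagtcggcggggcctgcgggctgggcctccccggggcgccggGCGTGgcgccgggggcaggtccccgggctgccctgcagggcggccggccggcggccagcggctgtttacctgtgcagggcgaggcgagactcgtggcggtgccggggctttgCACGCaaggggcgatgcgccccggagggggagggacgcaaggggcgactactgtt
LINC00673: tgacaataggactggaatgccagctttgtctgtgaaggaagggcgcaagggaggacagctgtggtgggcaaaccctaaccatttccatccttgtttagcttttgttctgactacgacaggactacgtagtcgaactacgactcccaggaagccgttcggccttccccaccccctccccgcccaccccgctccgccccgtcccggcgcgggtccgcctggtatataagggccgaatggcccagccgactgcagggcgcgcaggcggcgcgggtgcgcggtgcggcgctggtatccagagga
LINC00941: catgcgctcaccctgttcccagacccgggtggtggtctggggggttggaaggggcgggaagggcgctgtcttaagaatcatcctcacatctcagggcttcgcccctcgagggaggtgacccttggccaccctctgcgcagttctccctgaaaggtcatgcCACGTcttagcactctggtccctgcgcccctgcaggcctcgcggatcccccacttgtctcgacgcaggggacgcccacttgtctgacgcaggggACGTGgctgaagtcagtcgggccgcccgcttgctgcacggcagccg

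The LINC00887 window held 1 core, at position -143 from the start. LINC00511 held 3, at positions -181, -117 and -5, and LINC00941 held 2, at -90 and 5, whereas these letters did not occur in the LINC00673 window. A window was found for 65 of 93 members, and 40 of those 65 (61.5%) held at least 1 core, against 48.4% of the 35116 promoter windows of the table. The members' windows had a median GC content of 62.7%, and among all windows with 60% to 70% GC the share with a core was 63.7%. A core was found in 8 of 10 windows of members with higher CPM under hypoxia in all 3 pairs and in 6 of 10 of those with lower CPM. A match describes the letters and is not a measured binding site.

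Under hypoxia, 17 of the 93 members (18.3%) had a higher CPM in all 3 CRC lines and 14 (15.1%) had a lower CPM in all 3. Among the 13805 other genes these shares were 17.1% and 32.3%. In bulk RNA, fewer cells of a kind and less RNA per cell cannot be told apart. Because the members were sorted by these ratios, the counts describe them and carry no test. With a 2-fold step required in every pair, 3 members were higher (LINC00887, LINC01559 and LINC00511, background 1.35%) and 1 was lower (LINC00941, background 0.529%). All 17 of the higher members stayed higher in all pairs when TMM or DESeq2 scaling replaced the library total. Of the 14 lower members 10 stayed lower, and LINC00493, LINC00623, LINC00674 and LINC01012 did not.

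**Figure D1:**
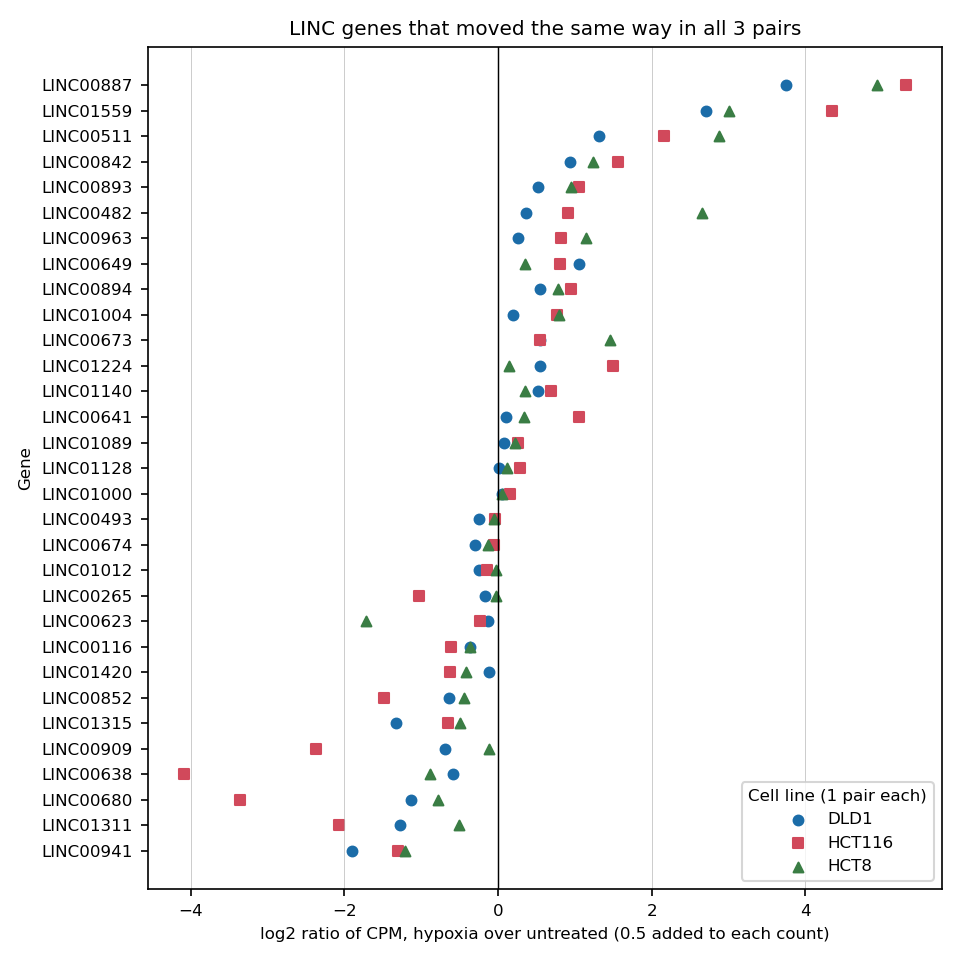
Log2 ratio of CPM, hypoxia over untreated (x axis, 0.5 added to each count), for the 31 members that moved the same way in all 3 pairs (y axis), with 1 point per cell line. LINC00887, LINC01559 and LINC00511 lie beyond 1 in every line, LINC00941 lies below -1 in every line, and HCT116 gives the lowest values of LINC00638 and LINC00680.

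LINC00887 (chr3:194013980-194040660, GRCh37, minus strand, 8 exon blocks, with no protein-coding exon overlap) was low in the untreated CRC lines, with 0 counts in DLD1, 16 in HCT116 and 1 in HCT8. Under hypoxia it had 7 counts in DLD1, 693 in HCT116 and 39 in HCT8. Every hypoxic library was thus above its untreated partner, and most of the reads came from HCT116. The ratio of CPM was 40.8 in HCT116 (95% counting interval 25 to 71.9) and 45.1 in HCT8 (7.63 to 1827), and DLD1 was at least 2.08-fold higher when its untreated library was set at the floor. In the normal lines it had 94 counts in NCM460 and 6 in HIEC6. CPN2, the nearest protein-coding gene at 19837 bases, had 0 counts in every library.

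LINC01559 (chr12:13524023-13540101, GRCh37, minus strand, 6 exon blocks) combined a restriction to certain lines with a difference under hypoxia. Untreated DLD1 had 233 counts and HCT8 had 132, against 1 in HCT116 and 0 in NCM460 and HIEC6. Hypoxic DLD1 had 1711 counts, HCT8 917 and HCT116 32. The order of the lines was the same with and without hypoxia, and the ratio of CPM was 6.55 in DLD1 (5.71 to 7.55), 8.04 in HCT8 (6.69 to 9.72) and 30.2 in HCT116 (5.04 to 1229). Its nearest protein-coding gene is GRIN2B, an NMDA receptor subunit gene 50775 bases away.

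LINC00511 and LINC00673 are neighbours on chromosome 17, between SOX9 and SLC39A11. Their start windows lie 47368 bases apart on the same strand, and in RefSeq their spans do not overlap. In GENCODE, LINC00511 covers chr17:70286232-70636611 (GRCh37), and LINC00673 had no matched entry of its own. The annotation used for counting is not known, so the genes are uncertain as separate measurements. Both have been described in several kinds of tumor. LINC00511 had 72 counts in untreated and 202 in hypoxic DLD1, 117 and 558 in HCT116, and 9 and 60 in HCT8, with ratios of 2.50 (1.90 to 3.32), 4.50 (3.68 to 5.54) and 7.71 (3.80 to 17.7). LINC00673 had 1376, 1232 and 516 counts without and 2263, 1917 and 1227 counts with hypoxia, with ratios of 1.47 (1.37 to 1.57), 1.47 (1.37 to 1.58) and 2.75 (2.48 to 3.05). Both genes were thus higher in each line, and both ratios were largest in HCT8. SLC39A11, which lies 5477 bases from LINC00511 in GRCh37, had log2 ratios of -0.06, 0.18 and -0.75 in the same pairs.

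**Figure D2:**
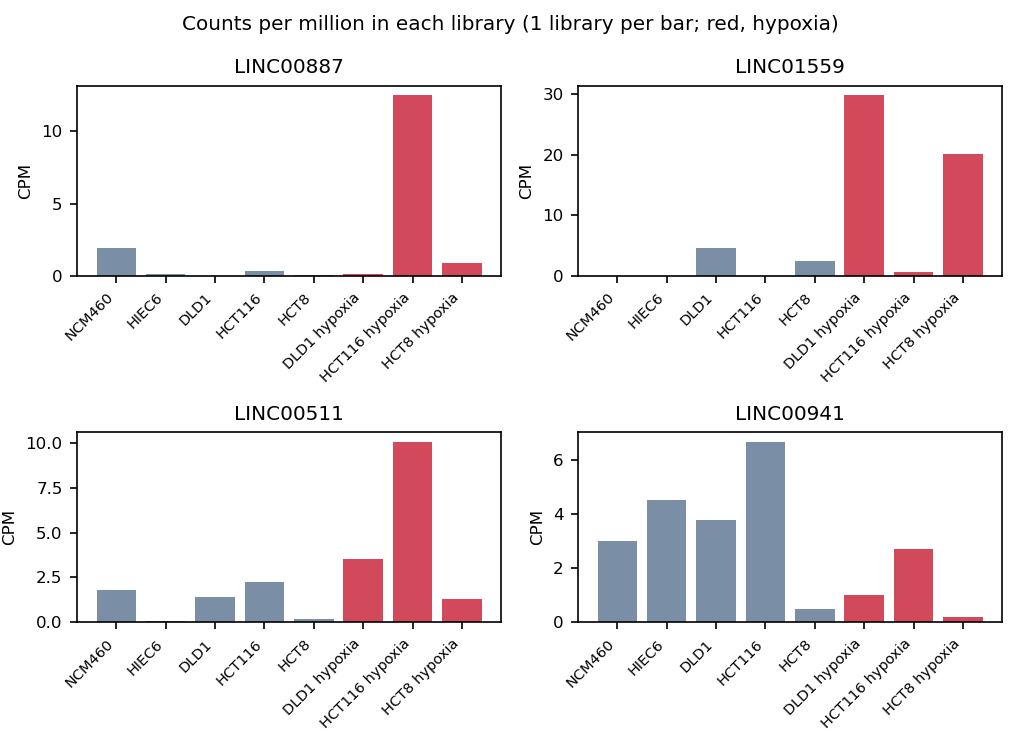
CPM (y axis, linear) of 4 members in each of the 8 libraries (x axis), with untreated libraries in grey-blue and hypoxic ones in red and 1 library per bar. LINC00887 peaks at 12.5 CPM in hypoxic HCT116, LINC01559 at 29.8 CPM in hypoxic DLD1, LINC00511 at 10.1 CPM in hypoxic HCT116, and LINC00941 at 6.70 CPM in untreated HCT116.

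Smaller or less even ratios were found for the other named members with higher CPM in all pairs. LINC00482 had log2 ratios of 0.36 in DLD1, 0.91 in HCT116 and 2.66 in HCT8, where the counts were 40 and 221. LINC01140 had 359 and 396 counts in HCT8 (log2 ratio 0.35) and no more than 45 in any other library. LINC00893 and LINC00894, which start beside the near-identical genes EOLA1 and EOLA2 on chromosome X and are now named EOLA1-DT and EOLA2-DT, had log2 ratios of 0.52 to 1.05 and 0.55 to 0.95, the HCT116 value of LINC00893 (1.05) resting on 2 and 5 counts. These are uncertain as separate measurements, since 35.2% of the 31-base words of LINC00893 exons also occur in those of LINC00894, and both overlap exons of their EOLA gene on the opposite strand. LINC00963 had log2 ratios of 0.25, 0.82 and 1.14, and LINC00649 had 1.05, 0.81 and 0.35, the HCT116 value of LINC00649 resting on 3 and 6 counts.

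LINC00941 was the member more than 2-fold lower in every line. This RNA has been described as promoting invasion of colorectal and pancreatic tumor cells, and the gene lies at chr12:30908101-30955536 (GRCh37, plus strand, 5 exon blocks) within the span of CAPRIN2 but without sharing its exons. It had 194 counts in untreated and 58 in hypoxic DLD1, 350 and 151 in HCT116, and 25 and 9 in HCT8. The ratios of CPM were 0.267 in DLD1 (0.195 to 0.360), 0.407 in HCT116 (0.334 to 0.494) and 0.416 in HCT8 (0.171 to 0.922). Untreated NCM460 had 149 counts and HIEC6 257. Its neighbour CAPRIN2 had log2 ratios of 0.05, 0.16 and 0.48.

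LINC00680 and LINC00638 had their lowest counts, 9 each, in hypoxic HCT116, with log2 ratios of -3.35 and -4.09 there and of -1.14 and -0.58 in DLD1 and -0.78 and -0.89 in HCT8. LINC01311 had 195, 215 and 204 counts untreated and 90, 54 and 124 under hypoxia. The untreated lines were thus nearly alike in this gene, and its log2 ratios were -1.28, -2.07 and -0.51. LINC01315 had ratios of -1.32, -0.64 and -0.50, and LINC00852, which shares 81 exon bases with GHRL on the opposite strand, had -0.64, -1.48 and -0.44. MTLN (LINC00116) had -0.36, -0.61 and -0.37. LINC00623 had -0.13, -0.24 and -1.72, where the HCT8 value came from 9 and 2 counts.

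In the fit across all genes, edgeR's quasi-likelihood test without the cell line as a block called 0 of 21045 genes (0%) between hypoxic and untreated CRC lines and 0 of 89 members tested, with 607 genes and 0 members at an unadjusted p under 0.05. DESeq2 without the block called 51 genes (0.253%) and 0 members. With the line as a block, edgeR called 200 genes (0.95%), 156 of them higher (0.741%) and 44 lower (0.209%). The members called were LINC00887, with a log2 fold change of 5.62 ± 0.57 (SE, 3 pairs), and LINC01559, with 3.11 ± 0.37, both higher. DESeq2 with the block called 1666 genes (10.9%) and 6 of 86 members, adding LINC00511, LINC00673 and LINC00963 to make 5 higher (6.23% of all genes tested) and LINC00941 as 1 lower (4.64% of all genes tested). The members had been described by this same contrast, so their calls are listed beside the background and nothing is read from them. Without the block the fitted log2 change of LINC00887 was 5.69, and it was 1.98 without hypoxic HCT116 and 9.03 without untreated HCT116. That of LINC01559 was 2.86, and it was 2.07 without hypoxic DLD1 and 3.85 without untreated DLD1.

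Pair by pair, the members' distributions differed in place between the 3 lines. Over members with 50 or more counts in either library of a pair, the median log2 ratio was -0.09 in DLD1 (76 members, other genes -0.03), -0.63 in HCT116 (70 members, other genes -0.39) and 0.24 in HCT8 (78 members, other genes -0.04). At 2-fold or more, 3 members were higher and 8 lower in DLD1, where the background was 4.31% and 1.49%. In HCT116 5 were higher and 25 lower (background 5.79% and 22.6%). In HCT8 16 were higher and 1 lower (background 6.47% and 5.84%), which is 20.5% and 1.28% of the 78 members. Membership asked for a count limit in any library, hypoxic ones included. LINC00663, LINC00494, LINC00893, LINC00910 and LINC01232 reached it only in hypoxic HCT8, and LINC00638, LINC00959 and LINC01061 only in untreated HCT8. Such a choice can shape the ratios of a pair. It can weigh more on the members, whose median highest count was 444 against 2599 for the other genes. The shares of members and background are therefore not like for like.

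The position of the HCT116 pair depends on the scale and on which members enter. For members with 50 or more counts the median was -0.63 with library totals (other genes -0.39), -0.29 with TMM (-0.05) and -0.21 with DESeq2 size factors (0.02). It thus stayed below zero and below that of the other genes. Over all 93 members, low counts included, it was -0.30 with library totals (other genes -0.36), 0.04 with TMM (-0.03) and 0.12 with DESeq2 size factors (0.05), so that it changed sign and lay above the other genes. This set includes members with 0 counts in both HCT116 libraries, such as LINC00899 and LINC00958. Their ratios hold the scaling alone (-0.08, 0.25 and 0.33), so the median over all members is uncertain. In HCT8 the median of the members with 50 or more counts was 0.23 to 0.27 under the 3 scalings, and that of other genes -0.06 to -0.02.

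**Figure D3:**
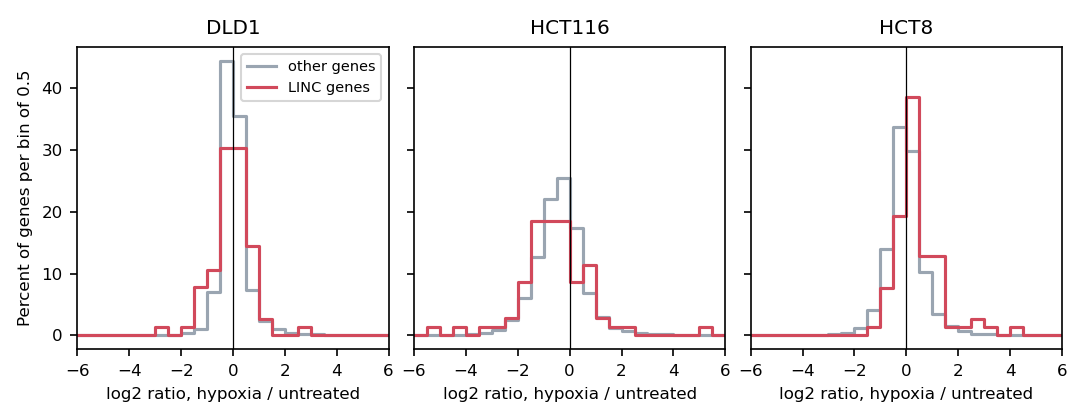
Share of genes (y axis, percent per bin of 0.5) by log2 ratio of CPM, hypoxia over untreated (x axis), in each of the 3 CRC lines, for LINC members (red) and other genes (grey). The members' curve lies to the right of the other genes in HCT8 (medians 0.24 and -0.04), and both curves lie left of zero in HCT116 (medians -0.63 and -0.39).

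The members behind the shift in HCT8 were partly those higher in all lines and partly members that moved another way elsewhere. LINC00896 had 25 counts in untreated and 107 in hypoxic HCT8 (log2 ratio 2.29), with ratios of -0.37 in DLD1 and -0.60 in HCT116. LINC01588 had 85 and 265 counts in HCT8 and log2 ratios of -0.23, 0.96 and 1.84 in DLD1, HCT116 and HCT8. LINC00659 (232 and 550 counts in HCT8) and LINC01011 (64 and 133) were above 2-fold in both HCT8 and HCT116 and below zero in DLD1, and LINC01011 shares 292 exon bases with NQO2 on the same strand. Among members with 50 or more counts in either HCT8 library, the 1 more than 2-fold lower was LINC00460, described as promoting growth and invasion of tumor cells, with 79 and 26 counts, against 141 and 160 in DLD1 and 127 and 210 in HCT116.

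In HCT116 the lowest ratios belonged to LINC01124 and LINC01126, which start next to a protein-coding gene and point away from it. In 9 members a protein-coding start on the opposite strand lay within 5000 bases before their own start. Of these, 8 had enough reads in this pair, and 5 of the 8 were 2-fold or more lower. Among the other members with a position 19 of 55 were, and among other genes 22.6%. The median of the 8 was -1.47 and that of the 55 was -0.62. LINC01126, which starts 604 bases from ZFP36L2, had 90 counts in untreated and 2 in hypoxic HCT116 (log2 ratio -5.26), while ZFP36L2 had 2393 and 2042 (-0.31). LINC01547, 84 bases from SLX9 (FAM207A in the table), had 115 and 18 counts (-2.73), and SLX9 had -0.49. LINC01521 beside PATZ1 had -1.92 and PATZ1 -0.95. In DLD1 and HCT8 the 9 divergent members had ratios from -0.34 to 0.55 and from -0.21 to 0.44.

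LINC01124 lies 770 bases from SP5, a target gene of Wnt signaling. It had 22 counts in untreated HCT116 and 0 in the hypoxic library, at least 7.78-fold lower against the floor. SP5 had 142 and 10 counts in the same libraries (log2 ratio -3.85). In DLD1 LINC01124 had 180 and 212 counts and SP5 had 791 and 649, and in HCT8 LINC01124 had 152 and 169 counts and SP5 658 and 198. The LINC gene and its partner were thus both low in hypoxic HCT116, and in HCT8 only SP5 was lower. Members with a single exon block, some of them divergent too, lay on the same side in HCT116, where 11 of 12 were lower (median -1.36), against 36 of 51 with more blocks (median -0.38) and 9058 of 12942 other genes. With TMM these were 10 of 12 (median -1.02), 26 of 51 (median -0.04) and 6829 of 12942.

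**Figure D4:**
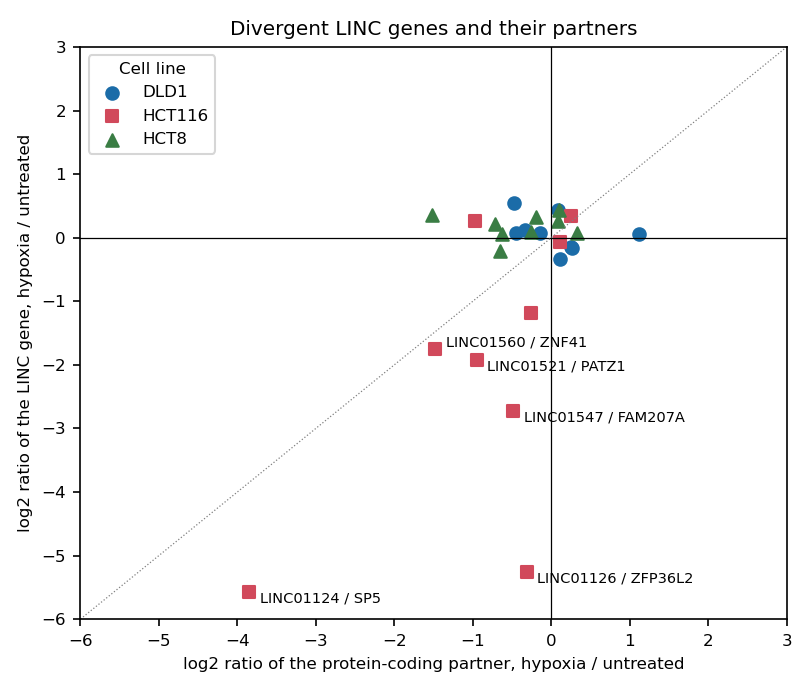
Log2 ratio of CPM, hypoxia over untreated, of 9 divergent LINC members (y axis) against that of their protein-coding partner (x axis), with 1 point per pair of genes and cell line. The dotted line marks equal ratios, the 5 lowest HCT116 points carry names, and LINC01126 lies at -5.26 while ZFP36L2 lies at -0.31.

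Neighbouring protein-coding genes were not used to choose the members. Of 72 nearest neighbours tested in the edgeR fit with the line as a block, 0 were called, against 0.95% of all genes, with a median log2 fold change of -0.04. The neighbours of members higher in all pairs had a median of 0.44 (14 genes, 6 of them higher and 2 lower in all pairs), and those of members lower in all pairs had a median of -0.27 (11 genes, 1 of them higher and 4 lower in all pairs). Among the other genes 17.1% were higher and 32.3% lower in all pairs. Some neighbours of the higher members share exon bases with them on the same strand, as ANXA8L1 with LINC00842 (121 bases) and RHOF with LINC01089 (1724 bases). The EOLA genes overlap LINC00893 and LINC00894 on the opposite strand. Such neighbours may hold reads of the member, so their direction is uncertain as a separate measurement. GRIN2B, beside LINC01559, had the counts 917, 3034 and 501 untreated and 2738, 8709 and 621 under hypoxia in DLD1, HCT116 and HCT8. Its log2 fold change was 1.27 ± 0.26 (SE, 3 pairs, adjusted p = 0.0724 in edgeR with the block), higher in 3 of 3 pairs and not past the threshold.

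Other described long noncoding RNAs placed the members in context. Of 18 listed, 17 were in the table and 14 were tested. With the block in edgeR 4 were called higher and 0 lower, against 0.741% and 0.209% of all genes tested. The 4 were NEAT1, the scaffold of paraspeckles (log2 fold change 1.67 ± 0.27), UCA1 (4.45 ± 0.49), the imprinted RNA H19 (2.24 ± 0.23) and MIR210HG, the host of the hypoxia-induced microRNA miR-210 (4.47 ± 0.40). LINC-ROR had 0 counts in every library. Of 25 LINC genes listed because they had been described in tumors or as small proteins, 23 were in the table and 19 were tested. Of these edgeR with the block called 0, against 0.95% of all genes tested. Of the members in this list DESeq2 with the block called LINC00511, LINC00673 and LINC00941, against 10.9% of all genes tested. CYTOR (LINC00152), described as promoting growth in many tumors, had log2 ratios of -0.51, 0.55 and 0.29.

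Between the lines, 25 of the 93 members (26.9%) were restricted, which means that every untreated line of a set had at least 10 times the CPM of every untreated line outside it. Among the other genes 13.5% met the same rule. The members lay nearer to the count limit, with a median highest count of 444 against 2599. Some passed it only through the line where they are high, as the 7 members of HIEC6 did. The shares of members and background are therefore not like for like here either. The levels chose these members, so their levels are a description. The largest group was the 7 members of HIEC6 (background 1.91%), followed by 5 shared by DLD1 and HCT8 (1.14%), 4 present in every line but HIEC6 (3.35%) and 3 shared by HIEC6, DLD1 and HCT8 (0.913%). NCM460 and HCT116 shared 2 (1.55%), and 1 each belonged to HCT8 (0.485%), to HIEC6 and HCT8 (0.159%), to NCM460, DLD1 and HCT116 (0.225%) and to NCM460, HIEC6 and HCT116 (1.35%). The hypoxic libraries were not used for the 10-fold rule, but they were used for membership. LINC00460, LINC00663 and LINC00893 reached 200 counts only in a hypoxic library. With the hypoxic libraries in place of the untreated CRC libraries, 23 of 25 kept their set, and LINC00663 and LINC00173 did not. The NCM460 and HIEC6 libraries were the same in both, so this is not an independent repeat. Without the HIEC6 library, which stood apart in its markers, 16 members were restricted.

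**Figure D5:**
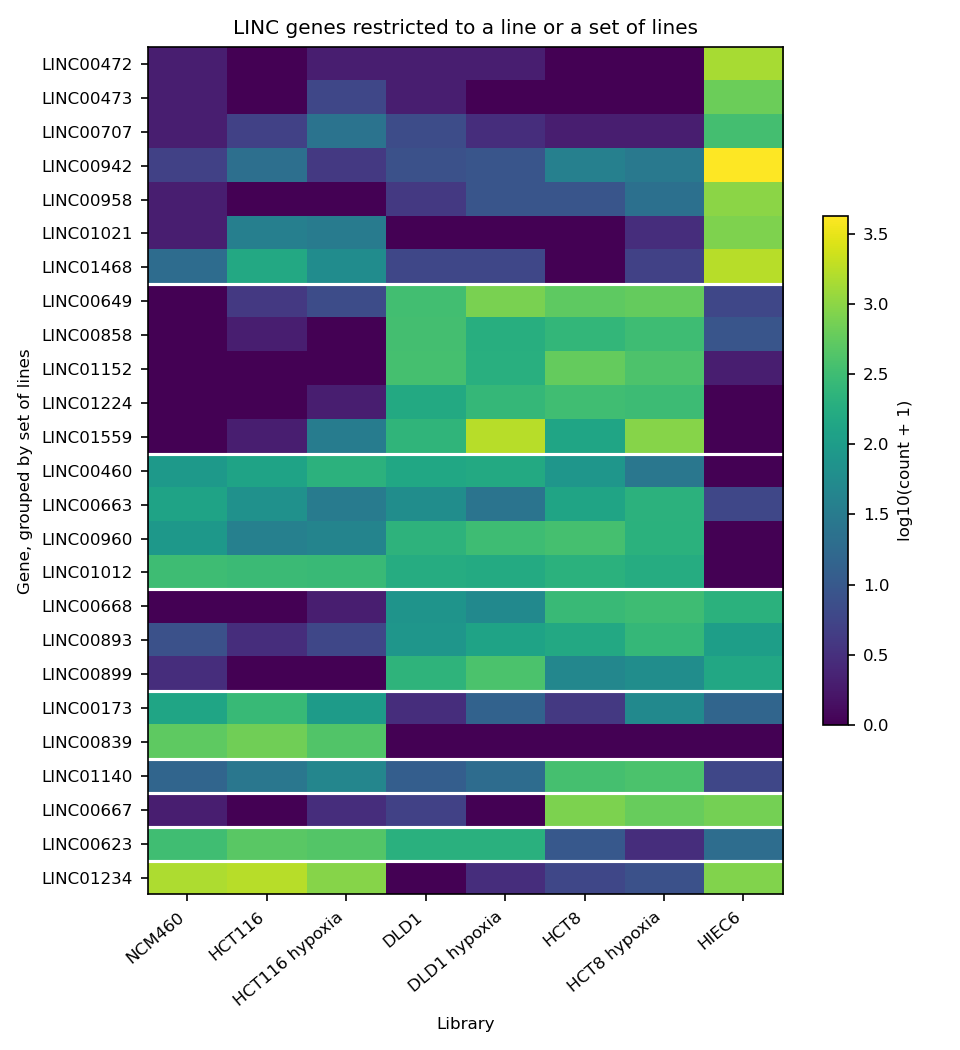
Log10 of the count plus 1 (colour) of the 25 restricted members (y axis, grouped by set of lines between white lines) in the 8 libraries (x axis). HIEC6 holds 7 members on its own, DLD1 and HCT8 share 5, and each hypoxic library resembles its untreated partner.

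LINC00942 had 4200 counts in HIEC6 and 4, 7, 20 and 37 in NCM460, DLD1, HCT116 and HCT8. LINC00472 had 1397 counts in HIEC6 and 0 or 1 in every other library. LINC00958 had 999 counts there against 0 to 21 elsewhere, and its neighbour TEAD1, a transcription factor of the Hippo pathway, had 40837 counts in HIEC6 against 10519 to 15213 in the other untreated lines. These genes thus separated HIEC6 from all other libraries, hypoxic ones included. LNCAROD (LINC01468), named as an activator of DKK1, had 1698 counts in HIEC6, 153 in untreated HCT116 and no more than 57 in the rest. PURPL (LINC01021), a target of p53, had 823 in HIEC6, 36 and 31 in untreated and hypoxic HCT116 and 0 to 2 elsewhere. LINC00473, a target of cyclic AMP signaling, had 638 in HIEC6 and 0 to 5 elsewhere, and LINC00707 had 343 against 1 to 23.

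DLD1 and HCT8 shared LINC01152, LINC00649, LINC00858, LINC01224 and LINC01559. LINC01152 had 361 counts in DLD1, 579 in HCT8, 1 in HIEC6 and 0 in NCM460 and HCT116. It lies 79710 bases from SOX9, the transcription factor of intestinal stem and progenitor cells, and SOX9 had 12131 to 23766 counts in NCM460, DLD1, HCT116 and HCT8 and 122 in HIEC6. The neighbour was therefore present in NCM460 and HCT116, where LINC01152 had 0 counts. LINC00858 had 342 and 248 counts in DLD1 and HCT8 against 0 to 8 in the other untreated lines. LINC00649, which shares 246 exon bases with ATP5PO on the opposite strand, had 337 and 527 against 0 to 5, while ATP5PO had 4506 to 6229 counts in all 5 lines. LINC01224 had 158 and 321 against 0 in each of the others.

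NCM460 and HCT116 shared LINC00839, with 534 and 685 counts against 0 in the other 3 untreated lines, at least 185-fold higher against the floor. Hypoxic HCT116 had 442 counts of it and the hypoxic DLD1 and HCT8 libraries 0. LINC01234, described as promoting growth of tumor cells, had 1493 and 1740 counts in these lines and 858 in HIEC6, but 0 in DLD1 and 5 in HCT8. LINC00173 had 133 and 275 counts in NCM460 and HCT116 and 14 or fewer in the other untreated lines. With hypoxia it had 51 counts in HCT8 and 95 in HCT116, so that the set no longer held.

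LINC01012 had 172 to 319 counts in the 4 lines other than HIEC6 and 0 in HIEC6, and LINC00460 had 79 to 141 counts against 0. EFNB2, the ephrin gene nearest to LINC00460, had 149 counts in HIEC6 against 2579 to 9754. LINC00960 had 37 to 363 counts in the same 4 lines and 0 in HIEC6. ZNF717, whose exons it overlaps on the opposite strand, had 401 counts in HIEC6 and 0 in HCT116, so both genes did not follow the same lines. LINC00663 had 58 to 128 counts against 5.

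HIEC6, DLD1 and HCT8 shared LINC00668 (207, 75 and 286 counts), LINC00899 (148, 224 and 47) and LINC00893 (105, 79 and 153), each with 0 to 7 counts in NCM460 and HCT116. The neighbour of LINC00668, ARHGAP28, had 605, 1975 and 821 counts in the first 3 lines and 4 and 0 in NCM460 and HCT116. LINC00667 had 723 counts in HIEC6 and 797 in HCT8 against 0 to 4, while ZBTB14, which it overlaps on the opposite strand, had 780 to 1711 counts in all 5 lines. LINC01140 was the member restricted to HCT8, and LINC00623 (320, 197 and 504 counts) was low in HIEC6 (19) and HCT8 (9). No member was restricted to DLD1, HCT116 or NCM460 alone, or to the 3 CRC lines together, where the background was 0.355%, 0.0217%, 0.0217% and 0.0724%.

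For the CRC lines against the normal ones, edgeR called 0 of 19964 genes (0%) and 0 of 89 members, with 542 genes and 4 members at an unadjusted p under 0.05. DESeq2 called 131 genes (0.665%) and 0 of 86 members. Differences between lines of the same label were large: 25 of 84 members differed 10-fold or more between NCM460 and HIEC6 (1739 of 13338 other genes), and 18 of 84 between HCT116 and HCT8 (1194 of 13404 other genes). Between NCM460 and HCT116, which carry different labels, 0 of 72 members differed 10-fold (46 of 12913 other genes). LINC00887 was among the 9 members of this last pair beyond 2-fold, with 94 counts in NCM460 and 16 in HCT116 (ratio 6.24, 3.65 to 11.4).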

How the data were processed

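The authors sequenced total RNA after removal of ribosomal RNA and deposited raw counts of reads per gene, not normalized, in 1 table with 54261 genes and 8 columns. The study's methods name GRCh37.p13 as the reference, whereas the submitters' processing notes list HISAT2 2.0.4 and GRCh38. The table holds no coordinates, and the counter, its strand setting and its treatment of reads with several matches are not given in the sources used here, so overlapping genes are reported as uncertain. All 8 columns were used, and groups came from the sample labels.

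Members were LINC symbols with 200 or more counts in at least 1 library. The members and gene lists were chosen with earlier results of these data known. CPM used the library total, and log2 ratios had 0.5 added to each count, which understates differences of low genes. Intervals of ratios are 95% exact binomial (Clopper-Pearson) intervals. Restricted members and members that moved the same way are descriptions. Groups were compared with edgeR 4.0.16 (glmQLFit and glmQLFTest, TMM, Benjamini-Hochberg over all genes tested, threshold 0.05) in R 4.3.3 for genes that reached 10 counts in 2 or more of the fitted libraries, and with DESeq2 1.42.0 as an alternative. The procedure was tested on simulated counts in which 200 genes changed by the same fold in every line. That test does not cover genes whose change differs between lines. Replicates of a group are different cell lines, so p-values without the block measure the spread between lines. With the cell line as a block, the level of each line is removed. The p-values then measure the spread of the change under hypoxia between lines. The SE beside an edgeR log2 fold change is the size of the change divided by the square root of the test's F statistic. It rests on a variance estimate that draws on all genes and is not a spread taken over the pairs alone. In the hypoxia comparison the replicate number is the cell line, and same-line deviations from the group means correlated at 0.836, 0.857 and 0.82, against -0.611 to -0.0599 between lines, so that results with the cell line as a block stand beside those without.

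Named members were, per direction, the 8 with the largest of their smallest ratio among those moving the same way in all 3 pairs with 200 or more counts in a CRC library, up to 4 per set of lines with the highest level in its lowest line, the 6 with the most reads, members of a list described elsewhere, and the nearest genes. Members named for their ratio in a single line, for a divergent start or beside a call (LINC00896, LINC01588, LINC00659, LINC01011, LINC00963, LINC00707, LINC01021 and the divergent members) were chosen after their values were seen. Positions come from GENCODE 44 lifted to GRCh37 (84 of 93 members matched) and start windows from RefSeq GRCh38.p14 (65 of 93 matched). Divergent means that a protein-coding start on the opposite strand lay within 5000 bases before the start of the member. Starts on the other side were not counted. LINC00893 and LINC00894, which overlap their EOLA gene, were therefore classed as not divergent.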

Additional observations from a re-analysis of the deposited data

Results flagged for a closer look

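In 4 of the members with 50 or more counts in a library of each of these pairs, the HCT116 pair was 2-fold or more lower under hypoxia while the HCT8 pair was 2-fold or more higher, and with 1 pair per line the difference between the lines was not tested. LINC00173 had 275 and 95 counts in untreated and hypoxic HCT116 and 3 and 51 in HCT8, a difference of 5.70 between the log2 ratios (HCT8 minus HCT116). The difference was 2.85 for LINC00910, with 94 and 37 counts in HCT116 and 124 and 290 in HCT8. It was 2.48 for LINC00346 (PRECSIT, named as an RNA regulated by p53), with 591 and 267 counts in HCT116 and 126 and 259 in HCT8. It was 2.17 for LINC01569, with 201 and 97 counts in HCT116 and 285 and 508 in HCT8. In DLD1 the log2 ratios of these 4 genes were 2.27, 0.65, 0.14 and -0.53. The median log2 ratio of all other genes was -0.36 in HCT116 and -0.03 in HCT8, so that part of each difference is shared by all genes.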

How the results depend on the processing

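The calls under hypoxia depended most on the handling of the cell line: against 0 genes in edgeR without the replicate block, 200 genes were called with the block, 51 by DESeq2 and 1666 by DESeq2 with the block, and of the members 0, 2, 0 and 6. Other normalizations, filters and each library left out (range 0 to 0) left both counts at 0. For CRC against normal lines DESeq2 called 131 genes against 0, the replicate number as a block 0, with 0 members in every setting and 0 with each library left out. The numbers pair different lines there. The 17 members higher in all 3 pairs became 3 at 2-fold in each pair, 10 with membership at 500 counts, and 19 to 36 with a pair left out (36 without HCT116). The 14 lower ones became 1, 6 and 17 to 33 (33 without HCT8). The 25 restricted members became 13 with membership at 500 counts and ranged from 16 to 25 with a normal line left out, where the 16 came without HIEC6, an alternative chosen after seeing the data. The median ratio of all 93 members in HCT116 was -0.30 with library totals, 0.0407 with TMM and 0.12 with DESeq2 size factors, which by construction shift all genes of the pair; for members with 50 or more counts it stayed negative (-0.63, -0.29 and -0.21). The causes of the other shifts were not tested, beyond fewer genes or pairs where these were removed. The remaining 73 alternatives of these results stayed within 1.5 times, or within the spread. Depth limits members near the floor of 3 counts, such as LINC00887 in untreated DLD1 and HCT8.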

Other observations

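The members that set NCM460 apart from HCT116, its nearest library, were few. Of 72 members with 50 or more counts in either, LINC00887 (ratio of NCM460 over HCT116 6.24, 95% counting interval 3.65 to 11.4) and LINC00960 (2.44, 1.64 to 3.69) were more than 2-fold higher in NCM460. Lower in NCM460 by the same measure were LINC01468 (0.125, 0.0721 to 0.204), LINC00342, LINC00910, LINC00963, LINC00941, LINC01123 and LINC00152. Of the 12 hypoxia response genes in these untreated libraries, 2 were 2-fold or more higher in NCM460, CA9 (36 and 6 counts) and NDRG1 (29922 and 7827), and 10 lay within 2-fold, with a median ratio of 0.955 and a lowest ratio of 0.652 (VEGFA). Of 11 measured members higher under hypoxia in all pairs, 4 were higher and 7 lower in NCM460, and of 14 members lower under hypoxia in all pairs, 4 were higher and 10 lower. These values come from 1 library per line, and NCM460 carries a second run label that it shares with hypoxic DLD1 and HCT116.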
